A study of Mus musculus with 4 samples.

Results

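DNA replication and S-phase genes were examined in regulatory T (Treg) cells that lacked, or kept, the gene for transferrin receptor 1 (TfR1, encoded by *Tfrc*), the main importer of transferrin-bound iron. The group was a list of 47 genes that copy DNA, make its building blocks or start S phase, and all 47 were found among the 47729 genes of the count table. The libraries were 2 from WT cells (*Tfrc* +/+ *Foxp3* YFP-Cre/+) and 2 from TfR1-deficient cells (*Tfrc* fl/fl *Foxp3* YFP-Cre/+), all from mice on a C57BL/6 background. They are called WT 1, WT 2, TfR1-deficient 1 and TfR1-deficient 2 after their replicate numbers. All 4 therefore carried the same *Foxp3* YFP-Cre allele and differed by the floxed *Tfrc* alleles. Cre is made from the *Foxp3* locus on the X chromosome, and the mice were heterozygous females, so after X inactivation only part of the Treg cells made Cre and YFP. CD25+YFP+ cells were sorted by flow cytometry, from the spleen according to the sample labels and from spleens and lymph nodes according to a figure legend. The stated age, which applies to all mice but the hemizygous conditional knockouts, was 6 to 8 weeks. The 2 replicates of each genotype are described as biological, and the number of mice behind each library is not given in the sources used here.

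Chromosomes are licensed for copying in G1, when the origin recognition complex, CDC6 and CDT1 load the ring of MCM2 to MCM7 onto DNA. At the start of S phase CDC45 and the GINS complex turn this ring into the active helicase, and polymerases, the PCNA clamp and its RFC loader then copy both strands. Most of these genes are switched on together by E2F transcription factors when a resting T cell re-enters the cell cycle. Several of the enzymes need iron: the small subunit of ribonucleotide reductase (RRM2) holds a di-iron centre, and the primase subunit PRIM2, the catalytic subunits of DNA polymerases delta and epsilon (POLD1, POLE) and the nuclease DNA2 have been described as iron-sulfur proteins.

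Letters bound by E2F were found in the promoters of some genes of the group, and these are shown because E2F factors are the best known common regulators of replication genes. RefSeq windows from 250 bases before to 50 bases after the start of transcription (GRCm38.p6) were at hand for 39 of the 47 genes. *Mcm4*, *Gins1*, *Gins2*, *Gins4*, *Pole*, *Prim2*, *Rfc2* and *Ccne2* had no window in that table. The letters searched for E2F were TTTGGCGC, TTTCCCGC, TTTGCCGC and TTTCGCGC on either strand. These letters were in the windows of 14 of the 39 genes (35.9%) and of 704 of all 27025 genes with a window (2.60%). Stretches of *Cdt1*, *Gins3*, *Lig1*, *Pole2*, *Rfc3* and *Uhrf1*, which also had the letters, are not shown, nor are further matches of *Mcm3*, *Mcm6* and *Mcm7*. The following 30-base stretches are read on the strand of each gene, with a single E2F match in capitals.
Cdc6 (chr11:98908002-98908031, plus strand): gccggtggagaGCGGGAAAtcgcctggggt
Orc1 (chr4:108579416-108579445, plus strand): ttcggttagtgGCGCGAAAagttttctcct
Mcm3 (chr1:20820275-20820304, minus strand): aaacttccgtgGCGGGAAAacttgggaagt
Mcm5 (chr8:75109345-75109374, plus strand): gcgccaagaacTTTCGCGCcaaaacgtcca
Mcm6 (chr1:128359797-128359826, minus strand): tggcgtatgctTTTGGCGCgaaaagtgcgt
Mcm7 (chr5:138172030-138172059, minus strand): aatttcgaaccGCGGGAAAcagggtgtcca
Pola1 (chrX:93632275-93632304, minus strand): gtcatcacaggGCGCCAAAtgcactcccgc
Pold1 (chr7:44548766-44548795, minus strand): cacggcggcgtatcttgtgGCGGGAAAagc

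In the stretches of *Mcm5* and *Mcm6* a match on one strand overlapped a match on the other, so that their letters were counted from both sides. CCAAT, on either strand, was in 23 of the 39 windows (59.0%, against 41.1% of all genes), and GGGCGG, the core of the SP1 motif, in 30 (76.9%, against 38.2%). The cell cycle homology letters TTTGAA were in 5 of the 39 (12.8%, against 20.2%). A match of letters was not a test of binding, and the genes without these E2F letters included *Rrm1*, *Rrm2*, *Pcna* and *Tk1*.

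Library totals ran from 10841939 to 17278448 counts, and every one of the 47 genes passed edgeR's filterByExpr, with 11 to 8078 counts in a library. Levels are given as CPM, counts scaled to library size with TMM factors. *Tfrc* itself was between 48.3 and 56.1 CPM in all 4 libraries, with no drop in the libraries labelled TfR1-deficient, so every direction between genotypes rests on the labels. Counts are for whole genes, so the floxed part of *Tfrc* was not examined. The paper reports loss of TfR1 protein in Treg cells of hemizygous knockout mice. It also reports less iron in CD25+YFP+ cells from females of the TfR1-deficient genotype than from WT females. The Treg genes *Foxp3*, *Il2ra* and *Ctla4* were present in all libraries. The libraries did not vary mainly by genotype, as principal component 1, with 62.6% of the variance, set WT 1 and TfR1-deficient 2 against the other 2.

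The level of the replication genes followed these 2 libraries rather than the genotype. Summed over the 47 genes, the WT libraries were at 4999 CPM (WT 1) and 3407 CPM (WT 2), and the TfR1-deficient libraries at 3531 CPM (TfR1-deficient 1) and 5039 CPM (TfR1-deficient 2). Each genotype thus had a high and a low library, and the genotypes overlapped. In 38 of the 47 genes WT 1 and TfR1-deficient 2 were the 2 highest libraries, an order seen in 22.9% of the 12536 genes tested. In bulk RNA such a difference cannot be told apart between more cycling cells and more of these transcripts in each cell.

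**Figure D1:**
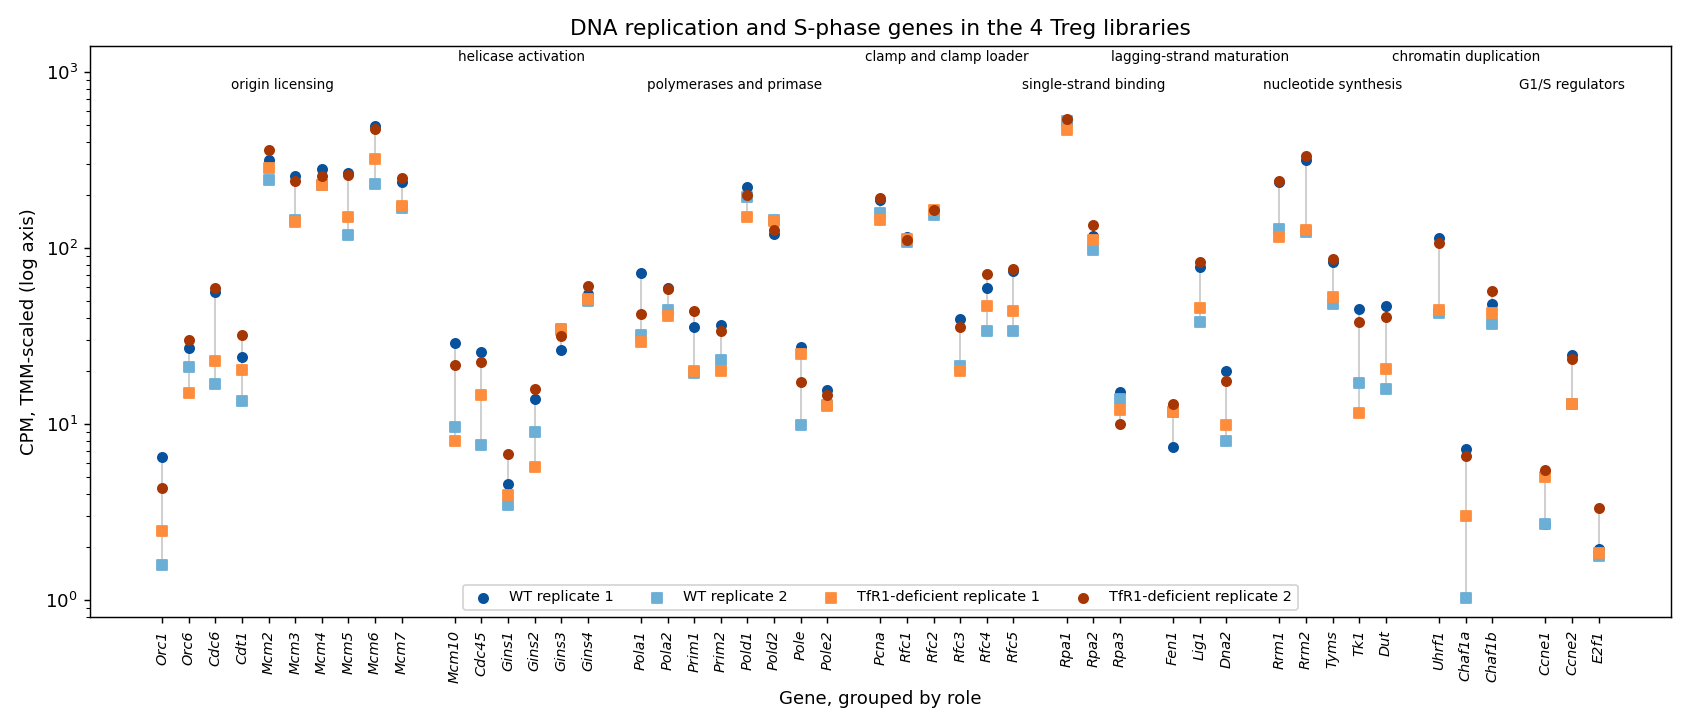
Level of each of the 47 genes (CPM, log axis) in the 4 libraries, with genes grouped by role and grey lines spanning lowest to highest. Round points (WT 1 and TfR1-deficient 2) lie above the square points (WT 2 and TfR1-deficient 1) in 38 of the 47 genes.

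Genes of mitosis and of macrophages were highest in the same libraries. Of 16 mitosis genes, all 16 had WT 1 and TfR1-deficient 2 on top. *Mki67*, which encodes the proliferation marker Ki-67, was at 90.5, 28.7, 34.7 and 82.0 CPM in WT 1, WT 2, TfR1-deficient 1 and TfR1-deficient 2. *Top2a*, a topoisomerase that untangles copied chromosomes, was at 336, 82.6, 73.9 and 263 CPM in the same order. All 19 tested of 20 macrophage markers were also highest in these 2 libraries. Their summed level was 1209, 99.9, 75.9 and 3645 CPM, and *Csf1r*, the receptor for a macrophage growth factor, was at 124, 1.97, 4.96 and 371 CPM. In WT 2 the macrophage genes *Mertk*, *Fcgr1* and *Sirpa* had 0 counts. TfR1-deficient 2 thus had a far higher macrophage sum than WT 1, while the replication sums of these 2 libraries were close. Erythroid markers, of which 10 of 12 had a row, followed another order, at 19.9, 114, 46.9 and 291 CPM. The part of macrophage or erythroid RNA in the levels of the replication genes was not tested.

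**Figure D2:**
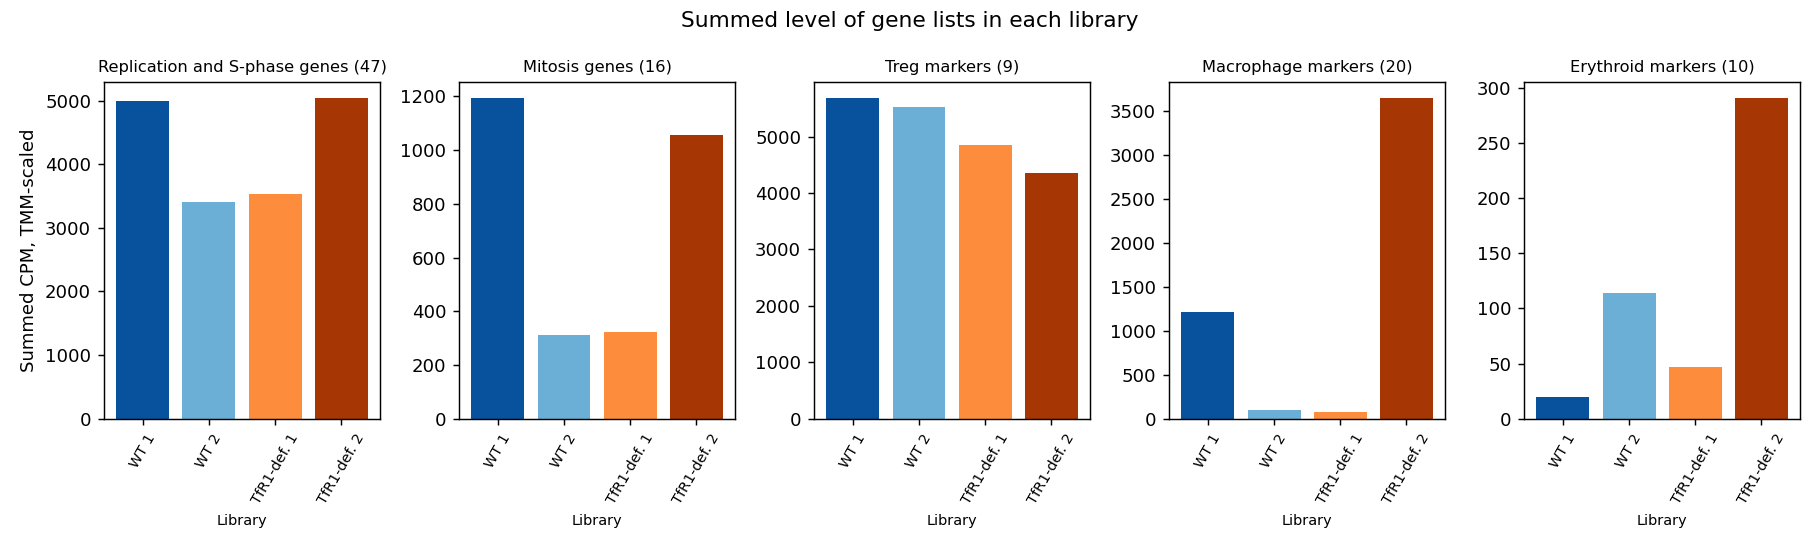
Summed CPM of 5 gene lists in each library, each panel with its own axis from 0. The replication, mitosis and macrophage sums are high in WT 1 and TfR1-deficient 2, the erythroid sum is lowest in WT 1, and the Treg sum runs from 5678 CPM down to 4347 CPM.

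Between genotypes, no gene of the group passed the test. A call needed an adjusted p-value under 0.05 (Benjamini-Hochberg, over all tested genes) from the quasi-likelihood test of edgeR and a log2 fold change of 0.5 or more in size. By this rule 0 of the 47 genes were higher and 0 were lower in the TfR1-deficient libraries, and the background over all tested genes was also 0.0% in each direction. DESeq2's Wald test called 0 of the 47 as well, against 0.0479% higher and 0.263% lower of all tested genes. With the unadjusted p-value in its place, edgeR found 1 of the 47 higher and 0 lower, against 1.6% and 2.48% of all tested genes, and DESeq2 0 and 0, against 1.64% and 2.45%. With no minimum change, 1 of the 47 had an unadjusted p under 0.05 in edgeR, against 5.22% of all tested genes. The group had a median log2 fold change of 0.07, beside 0.01 for all tested genes. In it 25 genes were above 0 and 22 below, against 51.1% and 48.9% of all tested genes. The lowest adjusted p of the group was 0.911 in edgeR.

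These differences were small beside their error. For 39 of the 47 genes the log2 fold change was smaller than its standard error, and the median half-width of the 95% intervals was 0.98 on the log2 scale. Only 16 of the 47 intervals lay within 1 of 0 on both sides, so for the other genes a log2 change of 1 in at least 1 direction lay inside the interval. Leaving out 1 library moved the median of the group to 0.49 (WT 1 omitted), 0.36 (TfR1-deficient 1 omitted), -0.27 (WT 2 omitted) or -0.29 (TfR1-deficient 2 omitted). For a single gene, 2 libraries against 2 cannot give less than p = 0.333 in an exact permutation test.

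**Figure D3:**
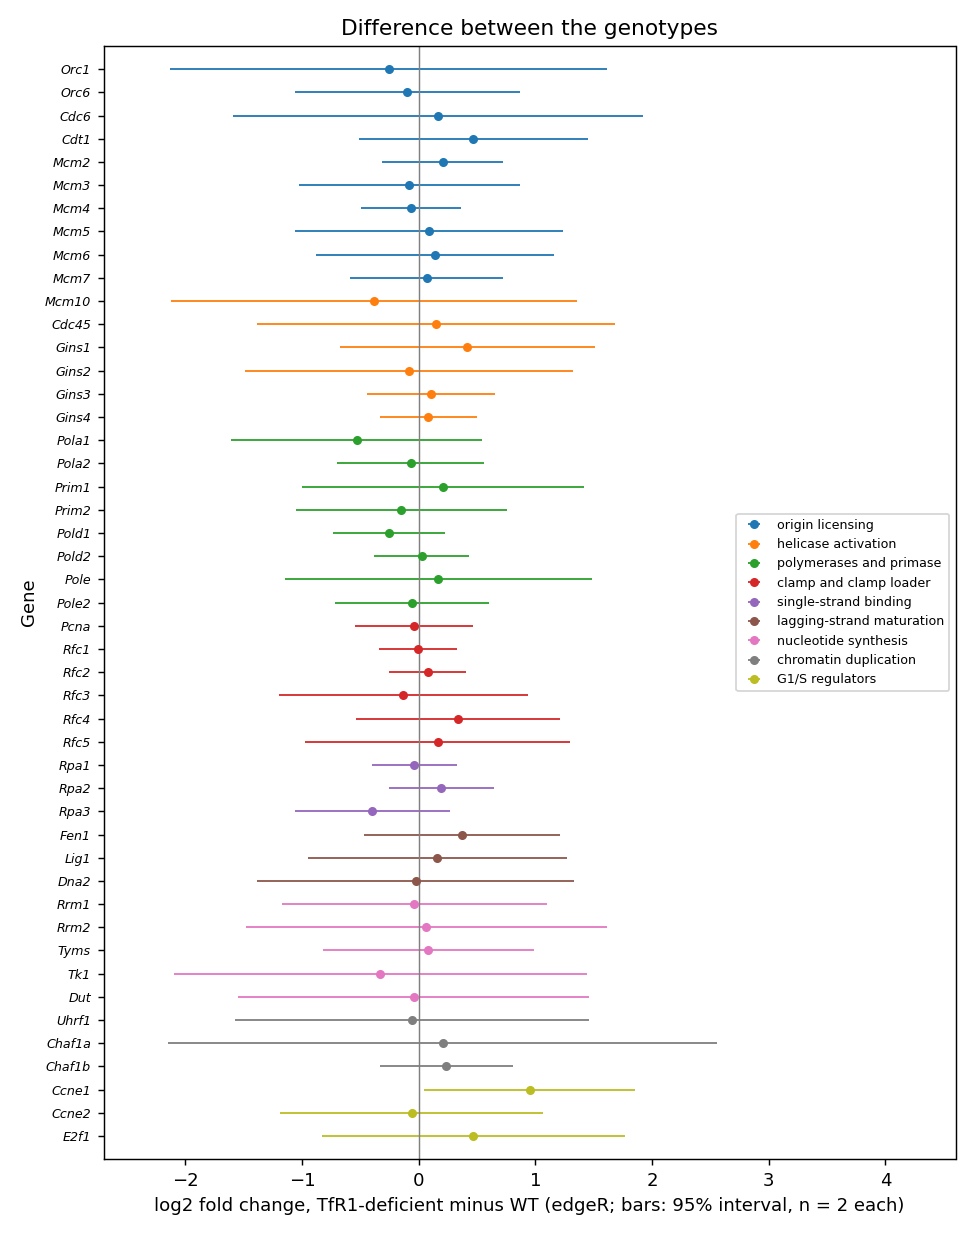
Log2 fold change of each gene, TfR1-deficient minus WT, from edgeR with its 95% interval (n = 2 libraries each), coloured by role. The interval of *Ccne1* alone lies above 0, from 0.05 to 1.85, and those of the other 46 genes span 0.

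Within each genotype the 2 replicates differed by more than counting error. In 35 of the 47 genes the CPM ratio of WT 1 to WT 2 was above 1 by its exact 95% counting interval (Clopper-Pearson, on the counts), and in 3 it was below 1. In 38 genes the ratio of TfR1-deficient 2 to TfR1-deficient 1 was above 1 by the same measure, and in 2 below. The counting intervals were computed for the 47 genes only, so the share of all tested genes beyond counting error is not known. The median log2 CPM difference was 0.79 between the WT libraries and 0.66 between the TfR1-deficient libraries, while over all tested genes it was 0.00 and -0.03. A log2 difference of at least 0.5 in these directions was found in 26 and 30 of the 47 genes, against 18.4% and 14.7% of all tested genes, and in the opposite directions in 1 and 1, against 13.9% and 14%. These intervals cover counting error only and were used for no statement on the genotypes.

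The values of single libraries can also be set side by side, high with high and low with low. These pairs were matched on the level of the same genes, so their small differences follow from that choice and say nothing about the genotypes. TfR1-deficient 2 and WT 1 had a median log2 CPM difference of 0.02 over the 47 genes, with 22 genes lower in the TfR1-deficient library. TfR1-deficient 1 and WT 2 had a median difference of 0.04, with 18 genes lower. A difference of at least 0.5 was seen in 4 genes upward and 4 downward in the first pair, and in 6 and 2 genes in the second. Over all tested genes the shares were 14% and 13.1%, and 14.1% and 10.4%. With 1 library against 1 these values have no replicate check.

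**Figure D4:**
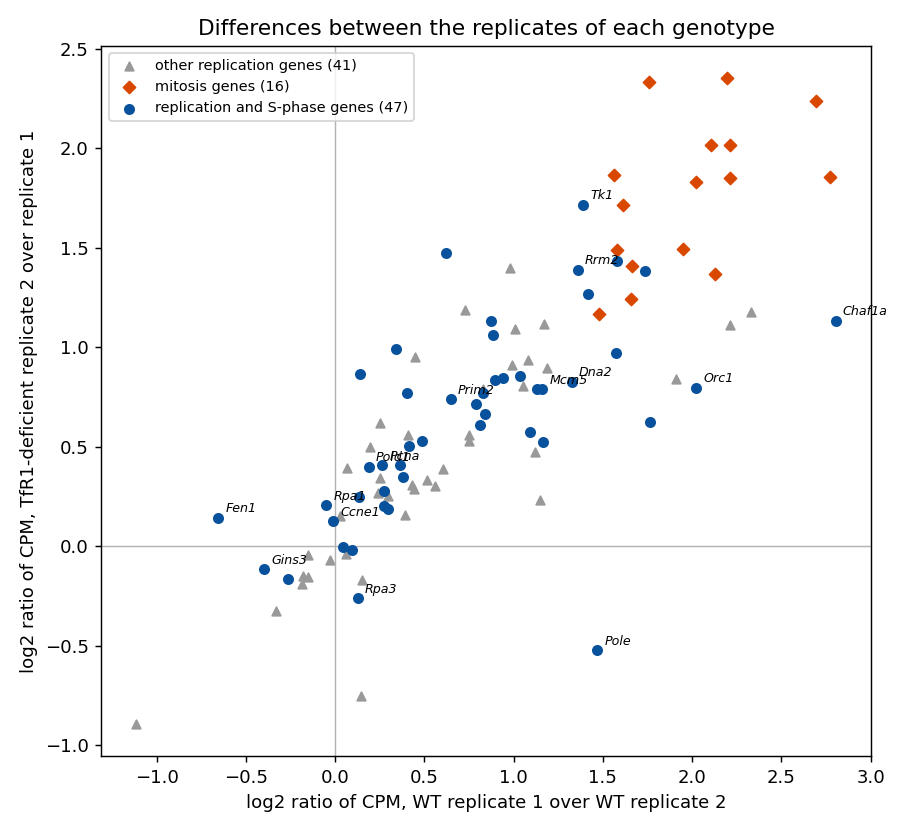
Log2 CPM ratio of WT 1 to 2 (x axis) against that of TfR1-deficient 2 to 1 (y axis), 1 point a gene, for the 47 genes, 41 further replication genes and 16 mitosis genes. Most replication genes lie in the upper right quadrant, all 16 mitosis genes lie in it (medians 1.98 and 1.83), and *Pole* lies to the right but below 0.

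Origin licensing genes all showed the common order of libraries, and none differed between genotypes by the test. In all 10, WT 1 and TfR1-deficient 2 were highest. *Cdc6*, the loader that brings the MCM ring to origins, was at 56.2 (WT 1), 16.9 (WT 2), 22.7 (TfR1-deficient 1) and 59.3 CPM (TfR1-deficient 2). Between genotypes it differed by 0.16 on the log2 scale (standard error 0.69, adjusted p = 0.991 in edgeR), so the genotypes overlapped and each held a high and a low library. *Cdt1*, its partner in loading, was at 24.2, 13.5, 20.2 and 32.0 CPM in that order, with the largest log2 fold change of the licensing genes, 0.47 (standard error 0.39, adjusted p = 0.95 in edgeR). *Orc1*, the largest subunit of the origin recognition complex, was low and uneven, at 6.47, 1.59, 2.48 and 4.31 CPM.

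The 6 subunits of the MCM ring, which are used in equal numbers, did not move by equal amounts between replicates. *Mcm5* was at 266, 119, 150 and 260 CPM, a ratio of 2.23 between the WT libraries (95% counting interval 2.09 to 2.38) and of 1.73 between the TfR1-deficient libraries. *Mcm4* was at 279, 227, 226 and 257 CPM, with ratios of 1.23 (1.17 to 1.29) and 1.14. *Mcm6* (ratios 2.13 and 1.49) and *Mcm3* (1.77 and 1.70) were between these, as were *Mcm7* (1.40 and 1.44) and *Mcm2* (1.30 and 1.27). Their log2 fold changes between genotypes lay between -0.08 (*Mcm3*, standard error 0.37) and 0.20 (*Mcm2*, standard error 0.21). The smallest of the 10 licensing genes in absolute terms was that of *Mcm4*, at -0.07 (standard error 0.17, 95% interval -0.49 to 0.36). Per kilobase of exon, mean levels ran from 46.8 CPM for *Mcm7* to 89.0 CPM for *Mcm2*, so all 6 were among the 11 highest of the 47 genes on that scale.

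Genes that activate the helicase were lower in level, and 5 of the 6 had the common order. *Mcm10*, which helps CDC45 join the ring, was at 28.8, 9.66, 8.01 and 21.6 CPM, and *Cdc45* at 25.8, 7.59, 14.6 and 22.5 CPM. Both separated the high from the low libraries and not the genotypes, with log2 fold changes of -0.38 (standard error 0.68) and 0.15 (standard error 0.60). Of the 4 GINS subunits, *Gins2* was at 13.8, 9.0, 5.71 and 15.8 CPM, and *Gins1* at 4.58, 3.47, 3.98 and 6.79 CPM, with the largest change of this role, 0.41 (standard error 0.43, adjusted p = 0.955 in edgeR). *Gins3* ran against the rest, at 26.4 CPM in WT 1 and 34.7, 34.2 and 31.5 CPM in the other libraries. *Gins4*, at 55.0, 50.1, 50.9 and 60.4 CPM, had the smallest change, 0.08 (standard error 0.16).

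Polymerase and primase genes ran from even to uneven. The highest library was 1.20 times the lowest for *Pold2* and 2.77 times for *Pole*, with *Pola2* (1.45), *Pold1* (1.47) and *Prim2* (1.80) between. *Pola1*, the catalytic subunit of polymerase alpha, was at 71.5, 31.9, 29.4 and 42.2 CPM. Its log2 fold change of -0.53 was the lowest of all 47 genes (standard error 0.42, 95% interval -1.61 to 0.54, adjusted p = 0.95 in edgeR), and it was 0.19 without WT 1. *Prim1*, the primase that starts each strand with RNA, was at 35.5, 19.4, 19.9 and 43.6 CPM. *Pold2*, an accessory subunit of polymerase delta, was nearly level at 120, 143, 141 and 126 CPM, with its 2 highest values in the libraries where most other genes were low, an order shared in the group by *Gins3* alone and found in 25.5% of all tested genes. It had the smallest change of this role, 0.02 (standard error 0.16). *Pole2*, a polymerase epsilon subunit, was at 15.6, 12.8, 12.7 and 14.6 CPM.

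Of the 5 iron-dependent enzymes, none differed between genotypes by the test, and their median log2 fold change was -0.03. *Rrm2*, the iron-holding subunit of the enzyme that makes deoxynucleotides, was at 314 (WT 1), 122 (WT 2), 126 (TfR1-deficient 1) and 330 CPM (TfR1-deficient 2). Each genotype held a high and a low value, and the log2 fold change of *Rrm2* was 0.07 with a wide error (standard error 0.61, 95% interval -1.48 to 1.61, adjusted p = 0.997 in edgeR). *Prim2*, the iron-sulfur subunit of primase, was at 36.3, 23.2, 20.1 and 33.6 CPM (log2 fold change -0.15, standard error 0.35). *Dna2*, a nuclease and helicase that trims Okazaki fragments, was at 19.97, 7.97, 9.91 and 17.6 CPM (-0.03, standard error 0.53).

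*Pold1* and *Pole* encode the leading enzymes of bulk DNA synthesis, and of these only *Pole* broke the common order of libraries. *Pold1* was at 222, 195, 151 and 198 CPM, with the lowest value in TfR1-deficient 1, and its log2 fold change was -0.26 (standard error 0.19, 95% interval -0.73 to 0.22, adjusted p = 0.95 in edgeR). *Pold1* remained below 0 with each library left out in turn, from -0.47 to -0.04. *Pole* was at 27.5, 9.94, 24.8 and 17.3 CPM, so that its 2 highest libraries were replicate 1 of each genotype, an order found in 8.97% of all tested genes. Its log2 fold change of 0.17 (standard error 0.52) was 1.10 without WT 1 and -0.39 without WT 2.

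Outside the 47 genes, 7 further iron-dependent DNA enzymes were listed and all 7 were tested. In edgeR 0 passed an adjusted p-value under 0.05, and 0 an unadjusted one, against 5.22% of all tested genes for the latter. *Rrm2b*, the ribonucleotide reductase subunit used outside S phase, was at 28.5 and 34.3 CPM in WT and 24.8 and 22.5 CPM in the TfR1-deficient libraries. Both TfR1-deficient values lay below both WT values. The log2 fold change was -0.41 with a standard error of 0.21 (adjusted p = 0.911 in edgeR), and such an order was found in 18.9% of all tested genes.

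The other nucleotide synthesis genes had the common order of libraries in all of the 5 listed, *Rrm2* included. *Tk1*, the S-phase thymidine kinase, was at 44.9, 17.2, 11.6 and 38.0 CPM, a ratio of 2.62 between the WT libraries and of 3.28 between the TfR1-deficient libraries. Its log2 fold change of -0.33 was the largest of the role in size (standard error 0.70), and it lay between -1.43 (TfR1-deficient 2 omitted) and 0.56 (WT 1 omitted). *Dut*, which clears dUTP, was at 46.9, 15.8, 20.6 and 40.3 CPM. *Rrm1*, the large subunit of ribonucleotide reductase, was at 237, 129, 116 and 241 CPM, and *Tyms*, which makes dTMP, at 83.0, 48.1, 52.7 and 86.4 CPM. *Rrm1* had the smallest change, -0.04 (standard error 0.45). Transcripts of *Tk1*, *Rrm2*, *Pcna*, *Mcm7*, *Uhrf1* and *Cdc6* have near-identical stretches at another locus of the mouse genome, over 37.8% (*Rrm2*) to 83% (*Tk1*) of their length, so their counts are uncertain where such reads were split.

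The clamp, its loader and the single-strand binding proteins held several of the most even genes of the group. *Pcna*, the sliding clamp, was at 188, 157, 144 and 191 CPM, a ratio of 1.20 between the WT and 1.33 between the TfR1-deficient libraries (log2 fold change -0.04, standard error 0.20). Of the loader subunits, *Rfc1* at 115, 108, 112 and 110 CPM and *Rfc2* at 158, 153, 164 and 164 CPM had the narrowest ranges of all 47 genes, each with its highest library 1.07 times its lowest. The loader was not even as a whole, since *Rfc5* was at 73.6, 33.7, 44.0 and 76.1 CPM, *Rfc4* at 59.4, 33.8, 46.5 and 71.0 CPM, and *Rfc3* had its highest library at 1.98 times its lowest. The largest change among them was that of *Rfc4*, 0.33 (standard error 0.34), and the smallest that of *Rfc1*, -0.01 (standard error 0.13).

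*Rpa1*, the large subunit of the single-strand binding complex, was at 506, 524, 466 and 537 CPM (log2 fold change -0.04, standard error 0.14, 95% interval -0.40 to 0.33). Its 2 highest libraries were replicate 2 of each genotype, an order found in 7.71% of all tested genes and in no other gene of the group. *Rpa3*, its smallest subunit, was the only gene of the 47 with both TfR1-deficient libraries below both WT libraries. It was at 15.1 and 13.9 CPM in WT and 12.0 and 10 CPM in the TfR1-deficient libraries, a log2 fold change of -0.40 (standard error 0.26, adjusted p = 0.934 in edgeR). That 1 of 47 stood beside 18.9% of all tested genes.

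Of the genes that finish the lagging strand, *Lig1*, the ligase that seals Okazaki fragments, was at 77.4, 37.8, 45.8 and 82.9 CPM in the common order. *Fen1*, the flap nuclease, was at 7.45 and 11.7 CPM in WT and 11.8 and 12.99 CPM in the TfR1-deficient libraries, where both values were above both WT values. The fitted log2 fold change of *Fen1* was 0.37 with a standard error of 0.33 (adjusted p = 0.951 in edgeR). In the GENCODE vM1 annotation 78.8% of the exon bases of *Fen1* overlap a noncoding gene on the opposite strand, and 67.3% of those of *Gins2* overlap *Gse1*, so the counts of these genes are uncertain where strand was not used. *Chaf1a*, a subunit of the histone loader CAF-1, had the widest range of the group, at 7.20, 1.03, 2.997 and 6.57 CPM, with 11 counts in WT 2. *Chaf1b*, its partner, was at 47.7, 37.0, 42.9 and 56.9 CPM (log2 fold change 0.24, standard error 0.22). *Uhrf1*, which passes DNA methylation to the new strand, was at 114, 42.8, 44.4 and 107 CPM and had the smallest change of the chromatin genes, -0.06 (standard error 0.60).

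*Ccne1*, which encodes cyclin E1, the CDK2 partner at the G1/S transition, was the 1 gene that passed the unadjusted p-value. It was at 2.701 and 2.72 CPM in WT and at 5.01 and 5.48 CPM in the TfR1-deficient libraries, from 33, 29, 87 and 75 counts. The replicates of each genotype were close and the genotypes did not overlap, unlike in most other genes of the group. The log2 fold change was 0.95 (standard error 0.36, 95% interval 0.05 to 1.85) with an unadjusted p of 0.042 and an adjusted p of 0.911 in edgeR's test across all genes. The unadjusted call depended on the fit. It was lost in DESeq2 (unadjusted p of 0.075), without the count filter (0.069), with the replicate block (0.124) and with each library left out, where the unadjusted p in edgeR lay between 0.108 and 0.186 and the log2 fold change between 0.88 and 1.04. Genes with both TfR1-deficient libraries above both WT libraries were 3 of the 47 (*Ccne1*, *Fen1* and *Rfc2*), against 16% of all tested genes. *Ccne2*, the second cyclin E gene, did not share this pattern, at 24.8, 12.9, 12.97 and 23.3 CPM (log2 fold change -0.06, standard error 0.44), and *E2f1* was at 1.97, 1.78, 1.84 and 3.36 CPM.

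Further genes of the pathway shared the common order of libraries to different degrees, and none passed the adjusted p-value. Over all tested genes, the common order was found in 22.9% and the reverse, with WT 2 and TfR1-deficient 1 highest, in 25.5%. An unadjusted p under 0.05 in edgeR was found in 5.22% of all tested genes. Of 41 other replication genes, 0 passed an adjusted or unadjusted p-value under 0.05 in edgeR, the median log2 fold change was 0.00, and in 30 of the 41 WT 1 and TfR1-deficient 2 were highest. Of 18 other nucleotide synthesis genes, 17 had a row of their own and were tested, 0 passed at the adjusted p-value, and 9 had the common order. *Atic*, of purine synthesis, had the only unadjusted p under 0.05, at 118 and 97.8 CPM in WT and 68.8 and 85.3 CPM in the TfR1-deficient libraries (log2 fold change -0.49, standard error 0.18, unadjusted p of 0.043 and adjusted p of 0.911 in edgeR). Of 26 genes of G1/S control, 24 were tested and 0 passed at the adjusted p-value. The common order was seen in 9 of the 24 and the reverse order in 6, the latter near its share over all tested genes. *Cdkn1b*, which encodes the CDK inhibitor p27, was at 99.8 and 93.8 CPM in WT and 59.99 and 78.0 CPM in the TfR1-deficient libraries. Its log2 fold change was -0.49 (standard error 0.18, unadjusted p of 0.039 and adjusted p of 0.911 in edgeR), just short of the minimum change of 0.5, as was that of *Atic*.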

How the data were processed

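The series holds RNA-seq of 4 libraries of sorted Treg cells, with genotype and replicate number taken from the sample titles. The deposited table holds whole-number read counts for Ensembl genes, neither normalized nor pooled. Submitters' processing notes name Trim Galore 0.6.7, STAR 2.7.9a, featureCounts and mm10, whereas the methods of the paper name mm9. The sources used here do not give the strand setting, the treatment of multi-mapping reads or the annotation release. Symbols were matched by identifier for 32799 of 47729 genes.

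In R 4.3.3, edgeR 4.0.16 was run on the 12536 genes kept by filterByExpr, with TMM factors and a quasi-likelihood test of genotype alone. Calls needed an adjusted p-value under 0.05 and a log2 fold change of 0.5 or more in size. Log2 CPM used a prior count of 2. Standard errors were derived from edgeR's F statistic, and 95% intervals use the t quantile at edgeR's degrees of freedom. DESeq2 1.42.0, other scalings, filters and minimum changes, a replicate block and the omission of each library were alternatives. The scripts were tested on simulated data with known changes. There the rule for calls in edgeR recovered 4 of 65 genes with a log2 change of 1. It recovered 40 of 64 genes with a change of 2 and 52 of 61 with a change of 3. DESeq2 recovered 18 of 65 genes with a change of 1. Among 11991 unchanged genes, edgeR called 9 and DESeq2 29.

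Members and lists were chosen with earlier results of these data known. The rule for named genes was, per role, genes with an unadjusted p-value under 0.05, the largest and smallest change and the 5 iron-dependent enzymes. Other genes of the group are named for their role, after their values were seen. Exon lengths are from GENCODE vM1. Transcripts of 12 genes matched another locus of NCBIM37 at 95% identity over at least 100 bases, over more than 25% of the transcript for *Tk1*, *Pcna*, *Mcm7*, *Uhrf1*, *Cdc6* and *Rrm2*, whose counts are uncertain where such reads were split.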

Additional observations from a re-analysis of the deposited data

How the results depend on the processing

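No gene of the group was called at the adjusted p-value under any alternative in edgeR or DESeq2, and their lowest adjusted p over the fits of all 4 libraries without the crossed pairing was 0.635, with every gene that had a count kept, where edgeR called 167 higher and 95 lower among all genes, against 0 and 0 with filterByExpr and 6 and 33 in DESeq2. The numbers of genes past the unadjusted p-value were 1 higher and 0 lower. These became 0 higher with DESeq2's Wald test, with the replicate block and when a log2 change of 1 was required, and 0 higher and 1 lower (*Pola1*) without the filter. With each library left out in turn they ran from 0 to 3 higher and from 0 to 1 lower, and the library alone in its genotype was then assumed to vary like the others. The 3 higher were *Cdc45*, *Chaf1a* and *Pole* without WT 1, and the 1 lower was *Pola1* without WT 2 and *Tk1* without TfR1-deficient 2. Deviations of same-numbered libraries correlated at -0.61 across genes. With 2 libraries a genotype this cannot show whether equal replicate numbers mark a pairing. The replicate block left 0 calls at the adjusted p-value. The crossed pairing (WT 1 with TfR1-deficient 2), chosen after seeing the data, gave 0 calls among the 47 genes and 150 higher and 210 lower among all genes at the adjusted p-value.

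The sign of small changes depended on the setting. *Rfc1* was above 0 with DESeq2's Wald test and DESeq2's size factors (0.006 each), no filter (0.005), a minimum of 10 counts per library (0.014) and total library size (0.03). *Dna2* was at 0.012 and *Rrm1* at 0.002 with total library size only, and with the replicate block *Dna2* was at 0.06 and *Dut* at 0.076. The median of the 47 genes lay between 0.063 and 0.105 under other tests, scalings, filters and the block, and the count of 38 genes in the common order of libraries between 38 and 39. Leaving out each library in turn changed the sign of 38 of the 47 genes, with log2 fold changes from -0.55 to 0.51 for *Ccne2*, -0.48 to 1.31 for *Cdc45*, -0.69 to 1.30 for *Cdc6*, -0.60 to 2.23 for *Chaf1a*, -0.54 to 0.81 for *Dna2*, -0.63 to 0.97 for *Dut*, -0.027 to 0.87 for *E2f1*, -0.023 to 0.78 for *Gins1*, -1.005 to 0.50 for *Gins2*, -0.060 to 0.31 for *Gins3*, -0.048 to 0.23 for *Gins4*, -0.34 to 0.79 for *Lig1*, -1.27 to 0.64 for *Mcm10*, -0.52 to 0.41 for *Mcm3*, -0.21 to 0.11 for *Mcm4*, -0.38 to 0.81 for *Mcm5*, -0.31 to 0.81 for *Mcm6*, -0.23 to 0.35 for *Mcm7*, -0.94 to 1.10 for *Orc1*, -0.68 to 0.35 for *Orc6*, -0.26 to 0.18 for *Pcna*, -1.004 to 0.19 for *Pola1*, -0.35 to 0.19 for *Pola2*, -0.084 to 0.16 for *Pold2*, -0.39 to 1.10 for *Pole*, -0.19 to 0.11 for *Pole2*, -0.47 to 0.73 for *Prim1*, -0.57 to 0.23 for *Prim2*, -0.059 to 0.061 for *Rfc1*, -0.61 to 0.41 for *Rfc3*, -0.019 to 0.82 for *Rfc4*, -0.30 to 0.86 for *Rfc5*, -0.15 to 0.093 for *Rpa1*, -0.67 to 0.49 for *Rrm1*, -0.80 to 0.92 for *Rrm2*, -1.43 to 0.56 for *Tk1*, -0.32 to 0.55 for *Tyms* and -0.83 to 0.84 for *Uhrf1*. At least 100 counts in every library were found for 38 of the 47 genes. Genes below that included *Ccne1* (29 counts in WT 2), *Chaf1a* (11 in WT 2), *Fen1* (91 in WT 1) and *Dna2* (85 in WT 2). What depth limited was not tested.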

Other observations

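Compared per kilobase of exon, the highest mean levels over the 4 libraries were those of *Rfc2* (105 CPM per kb), *Rpa1* (91.1) and *Mcm2* (89.0), and the lowest those of *E2f1* (0.71), *Orc1* (0.79) and *Ccne1* (1.49). *Rfc2* and *Rpa1* were thus both abundant and even across libraries, while *Mcm2*, *Mcm6* (86.7) and *Rrm2* (80.5), next in level, had highest-to-lowest ratios of 1.48, 2.13 and 2.701.

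Of 15 genes of the replication stress checkpoint, 15 were tested and 0 passed an adjusted or unadjusted p-value under 0.05 in edgeR, with a median log2 fold change of 0.03. WT 1 and TfR1-deficient 2 were highest in 8 of the 15, an order found in 22.9% of all tested genes. Genes with the E2F letters in their promoter window had the common order of libraries in 13 of 14 cases. Their median highest-to-lowest ratio was 2.16 (range 1.23 to 4.06). Genes without the letters had that order in 19 of 25 cases, with a median ratio of 1.99 (range 1.07 to 6.99). The ranges overlapped, 8 genes had no window, and a link between the letters and the order of libraries was not tested.

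The remaining marker lists were low in all libraries. Summed levels ran from 34.2 to 49.4 CPM for 9 B cell markers, 11.1 to 12.6 CPM for 2 CD8 T cell markers, 3.19 to 5.48 CPM for 5 NK cell markers, 2.21 to 4.69 CPM for 5 platelet markers and 4.18 to 10.7 CPM for 7 dendritic cell markers. The 9 Treg markers had a median log2 fold change of -0.26, and 2 of them, *Ctla4* and *Cd3e*, had an unadjusted p under 0.05, against 5.22% of all tested genes, with log2 fold changes of -0.81 (standard error 0.13) and -0.43 (standard error 0.16). The adjusted p in edgeR was 0.911 for each, as it was for the erythroid carbonic anhydrase gene *Car1*, at 0.57 and 0.28 CPM in WT and 2.13 and 2.41 CPM in the TfR1-deficient libraries.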
